A study of Mus musculus with 9 samples.

Results

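The 9 genes described here had RNA levels that differed strongly between *EPR*- and *EPRSTOPE*-overexpressing cells. They are *Armcx3*, *Hs6st2*, *Ptprb*, *Gem*, *Aif1l*, *Tpd52l1*, *Dbt*, *Ckb* and *1110002E22Rik*, that is 9 of the 52459 gene symbols in the data, and all 9 were among the 15370 genes kept by the filter on low counts. They were chosen by the size of the difference in their counts between EPR and EPRSTOPE libraries and for belonging to no larger family, without a fixed cut-off, so that difference is given below as a description and was not tested.

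The cells were NMuMG, an epithelial line from mouse mammary gland, kept without further treatment. *EPR* is the long non-coding RNA BC030870, which also holds a short open reading frame for a small peptide. Mock cells carried the empty pBICEP-based vector, EPR cells overexpressed the full transcript, and EPRSTOPE cells overexpressed a point mutant in which the second codon of the frame is a stop, so that no peptide can be made. All 3 conditions were stable transfectant pools selected with G418, and each gave 3 RNA-Seq libraries, numbered 203 to 205 (mock), 206 to 208 (EPR) and 209 to 211 (EPRSTOPE). The labels do not tell whether the 3 libraries of a condition came from separate pools or cultures, so p-values measure the spread between these libraries. The comparison of EPR with EPRSTOPE addresses which changes need the peptide and which follow from the RNA alone.

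The libraries held 5972457 to 11876435 estimated counts. The *EPR* RNA itself was at 0 to 0.163 counts per 1000000 counts of the library (CPM) in mock libraries, 23.7 to 27.0 CPM in EPR libraries and 3.80 to 4.74 CPM in EPRSTOPE libraries. The intact frame and a higher level of the RNA therefore went together. Their parts in any difference between the 2 overexpressing conditions cannot be told apart. If the libraries of a condition came from a single pool, traits of that pool cannot be told apart from the construct either. The paper narrowed its list of peptide-dependent transcripts with independent EPRSTOPE pools and qRT-PCR. The summed level of 11 epithelial markers was 3693 to 4159 CPM in mock, 9503 to 10611 in EPR and 10688 to 11025 in EPRSTOPE libraries. *Krt8* (2108, 5263 and 5977 CPM in mock, EPR and EPRSTOPE cells) and *Krt18* (1526, 3746 and 4137 CPM) carried most of it. All other listed epithelial markers, several of them near 0, had higher means in EPR than in EPRSTOPE cells. Among them were *Cdh1* (556 and 403 CPM in EPR and EPRSTOPE cells), *Krt19* (584 and 385 CPM) and *Ocln* (11.6 and 6.87 CPM). *Epcam*, *Cldn4*, *Cldn7* and *Esrp1* had no count in mock libraries, where *Cdh1* was at 0.843 CPM. The summed level of 10 mesenchymal markers, 4035 to 4201 CPM in mock, 2213 to 2444 in EPR and 3958 to 4297 in EPRSTOPE libraries, was lowest in the EPR libraries. *Vim* carried most of this sum, at 2634, 1768 and 3138 CPM in mock, EPR and EPRSTOPE cells. *Cdh2* (330, 132 and 158 CPM), *Fn1* (1039, 379 and 782 CPM), *Zeb1* (54.1, 49.5 and 50.1 CPM) and *Zeb2* (57.7, 33.6 and 44.1 CPM) had lower means in both overexpressing conditions than in mock. The remaining mesenchymal markers were below 1 CPM in every condition. The part of these marker levels in the results below was not tested. In bulk RNA, fewer cells of a type and less RNA per cell cannot be told apart.

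The 9 genes have little in common in their textbook roles. *Ptprb* and *Gem* act in signalling at the membrane and through small GTPases, *Hs6st2* modifies the heparan sulfate chains that present growth factors at the cell surface, and *Aif1l* binds actin. *Armcx3*, *Dbt* and *Ckb* serve mitochondria and energy supply, and *Tpd52l1* encodes a coiled-coil protein of the tumour protein D52 family.

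Sequence in front of the annotated start was available from RefSeq (GRCm38.p6) for 5 of the genes, *Hs6st2* (with 2 start sites), *Aif1l*, *Tpd52l1*, *Ckb* and *1110002E22Rik*, and not for *Armcx3*, *Ptprb*, *Gem* and *Dbt*. Shown are the 250 bases before the start for the 3 genes that were highest in mock and lowest in EPRSTOPE cells (*Hs6st2*, *Tpd52l1* and *Ckb*) and for *Aif1l*, which was highest in EPR cells. Capitals mark CG dinucleotides, and each sequence is written 5′ to 3′ in the direction of the gene. The windows are chrX:51681603-51681852 on the minus strand for *Hs6st2* (the first start site), chr10:31445959-31446208 on the minus strand for *Tpd52l1*, chr12:111672339-111672588 on the minus strand for *Ckb* and chr2:31950053-31950302 on the plus strand for *Aif1l*. The RefSeq starts of *Tpd52l1* and *Ckb* equal the outermost Gencode starts, while those of *Hs6st2* (51681602) and *Aif1l* (31950303) lie inside the Gencode gene.
Hs6st2: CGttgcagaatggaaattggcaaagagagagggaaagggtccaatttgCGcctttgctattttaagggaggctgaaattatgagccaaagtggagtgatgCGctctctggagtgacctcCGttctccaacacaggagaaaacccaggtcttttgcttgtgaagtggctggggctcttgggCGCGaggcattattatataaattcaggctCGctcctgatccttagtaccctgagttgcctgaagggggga
Tpd52l1: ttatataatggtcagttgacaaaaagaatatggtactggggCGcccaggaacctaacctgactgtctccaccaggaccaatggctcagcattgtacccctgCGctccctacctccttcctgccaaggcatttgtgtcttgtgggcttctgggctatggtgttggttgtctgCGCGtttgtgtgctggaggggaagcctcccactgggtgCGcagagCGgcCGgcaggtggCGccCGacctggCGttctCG
Ckb: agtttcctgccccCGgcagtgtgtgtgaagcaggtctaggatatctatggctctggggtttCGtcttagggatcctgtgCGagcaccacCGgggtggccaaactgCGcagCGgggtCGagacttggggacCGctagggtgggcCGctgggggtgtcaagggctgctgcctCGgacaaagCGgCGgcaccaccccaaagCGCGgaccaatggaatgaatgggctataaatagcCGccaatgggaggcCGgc
Aif1l: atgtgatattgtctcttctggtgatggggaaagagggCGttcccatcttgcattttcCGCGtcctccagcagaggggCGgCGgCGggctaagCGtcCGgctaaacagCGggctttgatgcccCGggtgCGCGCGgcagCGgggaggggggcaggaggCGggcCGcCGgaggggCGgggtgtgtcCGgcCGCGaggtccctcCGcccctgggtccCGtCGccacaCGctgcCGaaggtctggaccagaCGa

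The 3 genes with the same order of conditions did not share a base composition. The first *Hs6st2* window had 50% GC and 7 CG dinucleotides, that of *Tpd52l1* 58% and 11, and that of *Ckb* 62.8% and 16, beside medians of 52.4% and 6 over the 32851 RefSeq windows of the same length. The *Aif1l* window had 69.6% GC and 27 CG dinucleotides, and the second *Hs6st2* window 72% and 26. The window of *1110002E22Rik*, at 34.4% GC with 1 CG, lies before a RefSeq start at position 138062242 of chromosome 3, upstream of the first Gencode transcript start at 138065052. The letters TATAAA, searched on both strands, were present in the *Ckb* window, the first *Hs6st2* window and the *1110002E22Rik* window, and in 12.4% of all windows. CACCTG, whose other strand reads CAGGTG, was present in that of *Tpd52l1* and in 17.2% of all windows. TGACGTCA (1.55% of all windows), TGANTCA (6.75%) and GTCTAGAC (0.167%) were in none of the 6 windows, which says only that these letters are not in these 250 bases.

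For every one of the 9 genes the libraries of the 3 conditions formed 3 groups without overlap, which between EPR and EPRSTOPE follows from the choice. Non-overlap alone was common, being met by 57.8% of all tested genes between EPR and mock, 56.5% between EPRSTOPE and mock and 43% between EPR and EPRSTOPE. *Armcx3*, *Aif1l*, *Dbt* and *1110002E22Rik* were highest in EPR, intermediate in mock and lowest in EPRSTOPE cells. *Hs6st2*, *Tpd52l1* and *Ckb* went down in the order mock, EPR, EPRSTOPE. *Ptprb* and *Gem* were highest in EPRSTOPE, intermediate in mock and lowest in EPR cells.

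**Figure D1:**
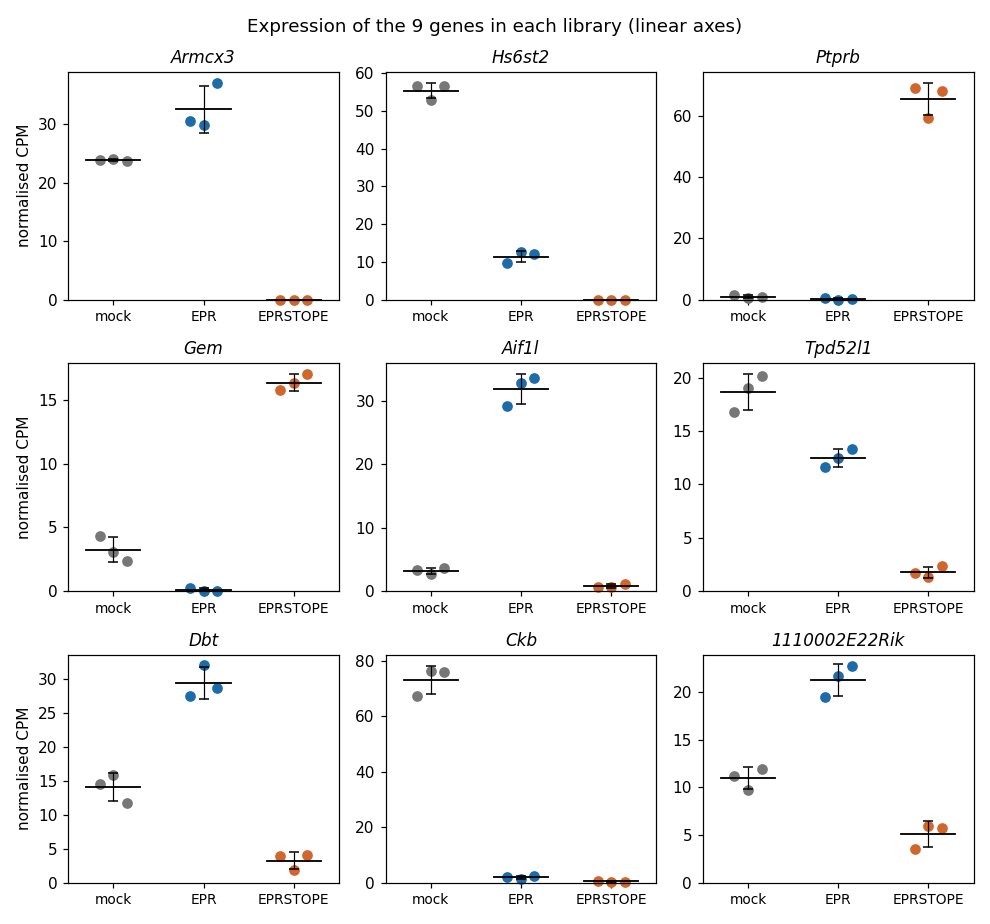
Normalised CPM (vertical axes, linear, different for each gene) of the 9 genes in the 3 libraries of each condition; points are libraries, long bars the mean and whiskers the SD. The 3 conditions do not overlap for any gene, and the EPRSTOPE libraries lie at 0 for Armcx3 and Hs6st2 and highest for Ptprb and Gem.

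*Ptprb* (ENSMUSG00000020154.10, chromosome 10 from 116275523 to 116389535, plus strand of GRCm38) encodes VE-PTP, a receptor tyrosine phosphatase known from endothelium, where it acts on the angiopoietin receptor Tie2 and on VE-cadherin. Its level was 1.40, 0.633 and 0.814 CPM in the mock libraries, 0.524, 0 and 0.0935 CPM in the EPR libraries and 68.9, 59.4 and 68.1 CPM in the EPRSTOPE libraries. Nearly all of its counts came from EPRSTOPE cells, 1555 against 25 from mock and 7 from EPR cells, and it entered the test through the EPRSTOPE libraries. It rose in EPRSTOPE against mock cells by 6.17 on the log2 scale (standard error 0.27). In EPR against mock cells the difference was −1.88 (standard error 0.60, adjusted p = 0.0220 from edgeR), which did not pass. Library 206 held 6 of the 7 EPR counts, and without it that difference was −3.74 and passed (adjusted p = 0.0014). It also passed with DESeq2 (−1.93, adjusted p = 0.00622) and with no filter on low counts (−1.89, adjusted p = 0.00298). The ratio of EPRSTOPE to EPR was 279, with a 95% counting interval from 135 to 695.

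Endothelial markers were low in all conditions. The summed level of 7 of them was 13.3 to 14.2 CPM in mock, 14.1 to 17.4 in EPR and 12.9 to 19.9 in EPRSTOPE libraries, ranges that overlap between the overexpressing conditions. *Pecam1* made up most of it, at 11.3, 12.4 and 13.4 CPM in mock, EPR and EPRSTOPE cells. *Cdh5* had 0, 27 and 13 counts in mock, EPR and EPRSTOPE libraries. In the same order, *Vwf* had 48, 61 and 43 counts, *Tie1* 11, 19 and 13, and *Tek* 5, 4 and 3. *Kdr* (2, 4 and 0 counts) and *Emcn* (0, 1 and 0 counts) were near 0 in all conditions.

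*Gem* (ENSMUSG00000028214.13, chromosome 4 from 11704457 to 11714752, plus strand) encodes a small GTPase of the RGK group, which binds the beta subunits of calcium channels. It was measured at 4.35, 3.06 and 2.36 CPM in mock, 0.262, 0 and 0 CPM in EPR and 15.8, 16.3 and 17.0 CPM in EPRSTOPE libraries. EPR cells were nearly devoid of it, while EPRSTOPE cells exceeded mock cells in every library. *Gem* fell by 4.81 on the log2 scale in EPR against mock cells (standard error 0.57) and rose by 2.37 in EPRSTOPE against mock cells (standard error 0.30). The 3 EPR counts all came from library 206, so the size of the fall is imprecise. Mock exceeded EPR 30.6-fold by the ratio of counts, with a 95% counting interval from 10.1 to 151, and the fitted fall was −7.81 without library 206 and −4.23 without library 208.

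*Hs6st2* (ENSMUSG00000062184.11, chromosome X from 51387212 to 51681856, minus strand) encodes a heparan sulfate 6-O-sulfotransferase of the Golgi. The mock libraries held 56.5, 53.0 and 56.6 CPM, the EPR libraries 9.60, 12.5 and 11.96 CPM, and none of the 3 EPRSTOPE libraries held a single count. It was lower in both overexpressing conditions, and in EPRSTOPE cells it was not detectable at this depth. The fall in EPR cells was 2.29 on the log2 scale (standard error 0.12), or 4.88-fold. Against a floor of 3 counts per library, its level in EPRSTOPE cells was at least 141-fold lower than in mock cells and at least 29.0-fold lower than in EPR cells.

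*Aif1l* (ENSMUSG00000001864.13, chromosome 2 from 31950139 to 31973442, plus strand) encodes an actin-binding relative of the macrophage protein AIF1. Mock libraries were at 3.26, 2.64 and 3.58 CPM, EPR libraries at 29.2, 32.8 and 33.6 CPM and EPRSTOPE libraries at 0.678, 0.641 and 1.15 CPM. EPR cells lay above and EPRSTOPE cells below mock cells. It rose by 3.32 on the log2 scale in EPR cells (standard error 0.17), or 10.1-fold, and fell by 1.91 in EPRSTOPE cells (standard error 0.26), or 3.84-fold. Macrophage markers stayed low in all libraries, with a summed level of 6 of them between 1.79 and 4.55 CPM, and *Adgre1* and *Tyrobp* had no count in any condition. *Aif1* itself was at 0.0543, 0.0291 and 0 CPM in mock, EPR and EPRSTOPE cells.

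*Armcx3* (ENSMUSG00000049047.11, chromosome X from 134756595 to 134761455, plus strand) encodes an armadillo-repeat protein of the mitochondrial outer membrane that takes part in mitochondrial transport. Its level was 23.9, 24.1 and 23.7 CPM in mock and 30.5, 29.9 and 37.1 CPM in EPR libraries, and no count was found in any EPRSTOPE library. EPR cells lay somewhat above mock cells, and EPRSTOPE cells were without detectable *Armcx3*. The difference of 0.45 on the log2 scale between EPR and mock cells (standard error 0.11, adjusted p = 0.00828 from edgeR) did not reach the required size of 0.5, whereas with counts scaled from TPM it was 0.53 and passed. With the floor of 3 counts per library, the level in EPRSTOPE cells was at least 61.1-fold lower than in mock and at least 83.1-fold lower than in EPR cells.

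*Dbt* (ENSMUSG00000000340.10, chromosome 3 from 116513070 to 116549981, plus strand) encodes the core subunit of the mitochondrial complex that oxidises the keto acids of leucine, isoleucine and valine. It stood at 14.6, 15.8 and 11.8 CPM in mock, 27.5, 32.1 and 28.7 CPM in EPR and 3.90, 1.82 and 4.03 CPM in EPRSTOPE libraries. As with *Aif1l*, EPR cells lay above and EPRSTOPE cells below mock cells in every library. The rise in EPR cells was 1.07 on the log2 scale (standard error 0.19), or 2.09-fold, and in EPRSTOPE cells *Dbt* fell by 2.14 (standard error 0.23), or 4.34-fold.

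*Ckb* (ENSMUSG00000001270.9, chromosome 12 from 111669361 to 111672338, minus strand) encodes the brain-type creatine kinase, which regenerates ATP from phosphocreatine. It was the most abundant of the 9 genes per length in mock cells, at 53.5 transcripts per 1000000 (TPM), above 84.8% of the tested genes. Library by library it was at 67.3, 76.2 and 75.9 CPM in mock, 2.09, 1.14 and 2.34 CPM in EPR and 0.678, 0.107 and 0.345 CPM in EPRSTOPE libraries. Little of it was left in either overexpressing condition. *Ckb* fell by 5.25 on the log2 scale in EPR cells (standard error 0.20), or 39.4-fold. In EPRSTOPE cells it fell by 7.71 (standard error 0.27). With 8 counts in all EPRSTOPE libraries together, the ratio of mock to EPRSTOPE was 222 with a 95% counting interval from 112 to 514, and that of EPR to EPRSTOPE was 5.78 with an interval from 2.74 to 14.01. The summed level of 5 skeletal muscle markers was at most 0.678 CPM in any library, and *Myh1*, *Myh2* and *Myod1* had no count.

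*Tpd52l1* (ENSMUSG00000000296.8, chromosome 10 from 31332376 to 31445958, minus strand) was at 16.8, 19.0 and 20.2 CPM in mock, 11.6, 12.5 and 13.3 CPM in EPR and 1.69, 1.28 and 2.30 CPM in EPRSTOPE libraries. It was lower in both overexpressing conditions, slightly in EPR and strongly in EPRSTOPE cells. The fall was 0.59 on the log2 scale in EPR cells (standard error 0.15, adjusted p = 0.0073 from edgeR) and 3.40 in EPRSTOPE cells (standard error 0.20). The first of these calls was lost when any 1 of the libraries 204 to 208 was left out, with adjusted p between 0.016 and 0.037.

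*1110002E22Rik* (ENSMUSG00000090066.2, chromosome 3 from 138065052 to 138081506, plus strand) was at 11.2, 9.71 and 11.97 CPM in mock, 19.5, 21.7 and 22.7 CPM in EPR and 3.56, 5.98 and 5.75 CPM in EPRSTOPE libraries. The departures from mock cells were nearly mirror images. It rose by 0.96 on the log2 scale in EPR cells (standard error 0.16) and fell by 1.07 in EPRSTOPE cells (standard error 0.18).

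Counted over the 9 genes, 7 passed the test in EPR against mock cells, 3 of them higher (*Aif1l*, *Dbt* and *1110002E22Rik*) and 4 lower (*Hs6st2*, *Gem*, *Tpd52l1* and *Ckb*). Of all tested genes 28.1% passed in that comparison, 15.2% higher and 12.9% lower. The median log2 fold change of the 9 genes was −0.59, beside −0.01 over all tested genes. In EPRSTOPE against mock cells all 9 passed, *Ptprb* and *Gem* higher and the other 7 lower, beside 28% of all tested genes, 15.6% higher and 12.4% lower. Here the median was −2.14, beside −0.04 over all tested genes. These 2 comparisons share the mock libraries with each other and the overexpressing libraries with the contrast by which the genes were picked, so the counts describe the genes and give no independent support to the choice.

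Opposite called directions against mock cells were found for 4 of the 9 genes, *Gem*, *Aif1l*, *Dbt* and *1110002E22Rik*, and for 55 of the 15370 tested genes (0.358%). *Hs6st2*, *Tpd52l1* and *Ckb* were called lower on both sides. The contrast by which the genes were picked favours the first kind, so the count carries no test.

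**Figure D2:**
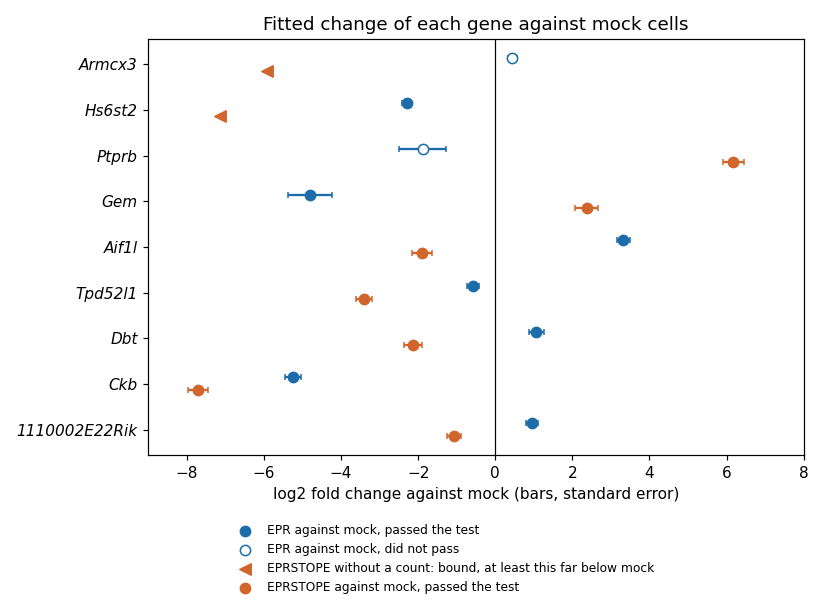
Fitted log2 fold change against mock cells (horizontal axis) of each gene in EPR cells (blue) and EPRSTOPE cells (orange), with standard errors; filled circles passed the test, open circles did not, and triangles give the bound for genes without a count in EPRSTOPE cells. Gem, Aif1l, Dbt and 1110002E22Rik have filled points on both sides of 0.

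The mean of the EPR and EPRSTOPE levels on the log scale, set against mock cells, is a contrast at right angles to the one that chose the genes. It is built from the same EPR and EPRSTOPE libraries, and on the log scale a condition near 0 dominates it, so it describes the genes and gives no independent support. It passed for 5 of the 9 genes, *Armcx3*, *Hs6st2*, *Tpd52l1* and *Ckb* lower and *Ptprb* higher, where 28.1% of all tested genes passed (15.1% higher and 12.9% lower). *Ckb* had a mean change of −6.48 (standard error 0.18) and *Tpd52l1* one of −1.996 (standard error 0.14). *Armcx3* and *Hs6st2* also had negative values, whose fitted size depends on how counts of 0 are treated, and for *Armcx3* the value came from the EPRSTOPE libraries at 0, since its EPR libraries lay above mock. The mean change of *Ptprb* was 2.15 (adjusted p = 0.00344 from edgeR), and it did not pass without library 206 (1.22, adjusted p = 0.344), 204 (adjusted p = 0.0109) or 205 (adjusted p = 0.0117). *Gem* (−1.22, adjusted p = 0.0247), *Aif1l* (0.71, adjusted p = 0.0104), *Dbt* (−0.54, adjusted p = 0.0247) and *1110002E22Rik* (−0.06, adjusted p = 0.775), the 4 genes with opposite directions, did not pass in edgeR's test. *Gem* passed without library 206 (−2.72, adjusted p = 0.00284) and with no filter on low counts (−1.23, adjusted p = 0.00259), *Aif1l* without library 210 (0.80, adjusted p = 0.00931), and *Dbt* with no filter (−0.55, adjusted p = 0.00108) and with DESeq2 (−0.53, adjusted p = 0.00972).

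As a description of the contrast that chose them, the fitted log2 fold changes of EPR against EPRSTOPE were −8.06 for *Ptprb*, −7.18 for *Gem*, 5.23 for *Aif1l*, 3.21 for *Dbt*, 2.82 for *Tpd52l1*, 2.47 for *Ckb* and 2.03 for *1110002E22Rik*, and *Armcx3* and *Hs6st2* are bounded above. By fitted size among the 15370 genes *Ptprb* ranked 19, *Gem* 39, *Aif1l* 104, *Dbt* 280, *Tpd52l1* 354, *Ckb* 437 and *1110002E22Rik* 583. The fitted sizes of *Armcx3* and *Hs6st2*, set against libraries without a count, depend on the prior count and on the tool, so no rank is given for them. Of all tested genes, 13.2% passed in this contrast.

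The 9 genes have 40 annotated transcripts in the data, of which 20 passed the filter, at least 1 for each gene. In EPR against mock cells 1 transcript passed higher (*Aif1l*-201, 3.76, standard error 0.45) and 2 lower (*Gem*-202 and *Ckb*-201), beside 4.07% of the 45412 tested transcripts. In EPRSTOPE against mock cells 2 passed higher (*Ptprb*-201 and *Ptprb*-203) and 7 lower (*Armcx3*-201, *Armcx3*-202, *Hs6st2*-201, *Hs6st2*-202, *Tpd52l1*-201, *Dbt*-201 and *Ckb*-201), beside 4.64%. *Ptprb*-201 entered the test only through the EPRSTOPE libraries, where it was high. The count of higher transcripts was 1 when any single mock library was left out (15 to 17 transcripts tested). It was 0 when any single EPRSTOPE library was left out (19 tested). Leaving out an EPRSTOPE library takes *Ptprb*-201 below the filter of 3 libraries, so its loss there was fixed in advance. *Ptprb*-203 stayed among the 19 tested, and its call was lost each time. The split of counts over similar transcripts is an estimate and adds uncertainty that gene sums do not have.

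The *Ptprb* counts in EPRSTOPE cells were assigned mostly to *Ptprb*-201 and *Ptprb*-203, which differ in annotated start and in length. No start was measured. *Ptprb*-201, a protein-coding transcript of 11911 nt starting at position 116301372, had 224, 313 and 315 estimated counts in the EPRSTOPE libraries and none in any mock or EPR library. *Ptprb*-203, also protein-coding, with 7016 nt and a start at 116275550, had 183, 236 and 268 in EPRSTOPE libraries, 9, 6 and 8.69 in mock libraries and 6, 0 and 1 in EPR libraries. The few counts of mock and EPR cells were thus assigned to transcripts annotated with the upstream start, but were too few to judge shares. In EPRSTOPE cells *Ptprb*-201 took 54.9% ± 1.52 (SD, n = 3) of the gene's counts. Against mock cells, *Ptprb*-203 rose by 5.02 on the log2 scale (standard error 0.76), a call that was lost when any single EPRSTOPE library was left out.

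The share of the leading transcript could be compared between mock and EPR cells where each library held at least 50 counts of the gene. This was so for *Armcx3*, *Hs6st2*, *Tpd52l1*, *Dbt* and *1110002E22Rik*. *Armcx3*-201 took 49.6% ± 7.26 of *Armcx3* in mock and 68.7% ± 9.67 in EPR cells (SD, n = 3 each, exact two-sided permutation p = 0.1, the smallest that 3 libraries against 3 allow). *Hs6st2*-201 took 49.9% ± 21.1 and 49.9% ± 14.2 (exact permutation p = 1, n = 3 each), although *Hs6st2* as a whole fell. *Tpd52l1*-204 took 69.7% ± 4.39 and 64.4% ± 7.87 (exact permutation p = 0.5, n = 3 each), and *Dbt*-201 took 87.1% ± 4.53 and 93.1% ± 4.63 (exact permutation p = 0.3, n = 3 each). *1110002E22Rik*-201 took 100% in both mock and EPR cells. *Gem*, *Aif1l* and *Ckb* had a dominant transcript in the condition where each could be judged. These were *Gem*-202 with 91.5% ± 7.42 in EPRSTOPE cells, *Aif1l*-201 with 88.9% ± 3.93 in EPR cells and *Ckb*-201 with 92.6% ± 4.32 in mock cells (SD, n = 3 each).

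**Figure D3:**
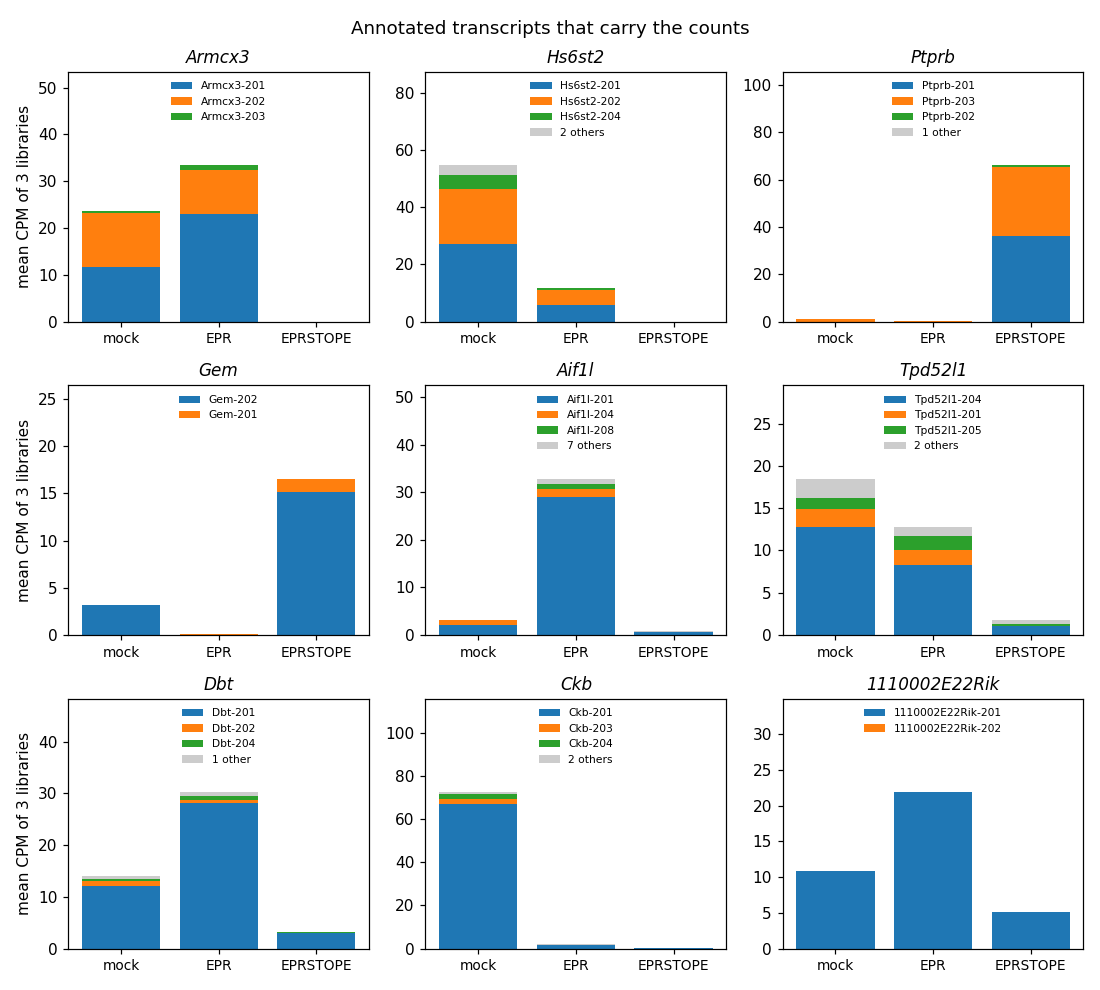
Mean CPM of 3 libraries (vertical axes, linear, bars from 0) stacked by annotated transcript for each gene and condition, with the 3 most abundant transcripts in colour and the others in grey. The bar of Ptprb in EPRSTOPE cells is split between transcripts 201 and 203, while 1 transcript makes up most of Gem, Aif1l, Dbt, Ckb and 1110002E22Rik.

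Reads of near-identical copies bear on a few of these levels. In the Gencode M21 transcripts, 30.3% of the 31-base stretches of *Armcx3* also occur in other genes, of which *Gm9299* had 18 counts in mock and none in EPR or EPRSTOPE libraries. For *Ckb* the share was 17.5%, all with its pseudogenes *Ckb-ps1*, *Ckb-ps2* and *Gm12892*, which had at most 1 count in a condition. *1110002E22Rik* shares 4.36% with *Gm5105*, which overlaps it on the opposite strand and had 0 to 3 counts in a condition. *Gem* and *Tpd52l1* share none. *Aif1l* shares 2.75%, with *Nepro*, which had 1352, 932 and 1069 counts in mock, EPR and EPRSTOPE cells, and with *Gm13442*, which overlaps it on the opposite strand and had 1 to 2 counts in a condition. The library kit keeps the strand, but whether the quantification used it is not given in the sources used here.

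Relatives and partners of the 9 genes were examined to see whether the split extended beyond them. Of 121 listed genes 88 were tested, and in EPR against EPRSTOPE cells 6 passed higher, 10 lower and 72 did not pass, where 13.2% of all tested genes passed (6.86% higher and 6.35% lower). The median of the 88 was −0.11, beside 0.01 over all tested genes.

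Among heparan sulfate core proteins, which carry the chains that *Hs6st2* sulfates, 6 of 7 tested genes passed, the largest share among the 10 lists. *Sdc1* (322, 508 and 767 CPM in mock, EPR and EPRSTOPE cells), *Sdc3* (65.0, 22.9 and 45.3 CPM), *Sdc4* (326, 351 and 725 CPM) and *Gpc6* (11.3, 4.46 and 9.82 CPM) were lower in EPR than in EPRSTOPE cells, by −0.59, −0.98, −1.05 and −1.13 on the log2 scale. *Sdc2* was higher by 1.49 (standard error 0.14). Its mean levels of 17.1 ± 2.66, 28.1 ± 2.63 and 10.1 ± 0.981 CPM (SD, n = 3 each) belonged to mock, EPR and EPRSTOPE cells, and it was called in opposite directions against mock cells, as *Aif1l* was. *Gpc2* had 7.82, 3.40 and 0.0565 CPM in mock, EPR and EPRSTOPE cells, which is the order of *Hs6st2*. With 1 count in EPRSTOPE cells, its ratio of EPR to EPRSTOPE was 80.5 with a 95% counting interval from 14.1 to 3209. Of the enzymes of heparan sulfate 1 of 18 passed, the 3-O-sulfotransferase *Hs3st1* (12.9, 27.3 and 10.7 CPM in mock, EPR and EPRSTOPE cells, 1.36 on the log2 scale). *Hs6st1*, another 6-O-sulfotransferase, was at 28.1, 43.9 and 35.6 CPM in mock, EPR and EPRSTOPE cells and did not pass between EPR and EPRSTOPE (0.30, adjusted p = 0.0381 from edgeR).

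In the branched-chain pathway of *Dbt*, 2 of 24 tested genes passed, both lower in EPR than in EPRSTOPE cells. *Bcat1*, the cytosolic aminotransferase of the first step, had levels of 57.0, 0.0623 and 3.01 CPM (mock, EPR, EPRSTOPE), and with 2 counts in EPR cells its ratio of EPRSTOPE to EPR was 45.8 with a 95% counting interval from 12.2 to 386. *Aldh6a1*, a dehydrogenase of valine breakdown, was lower by −0.94, a call that was lost without library 206 (adjusted p = 0.0131), 208 (adjusted p = 0.0113) or 209 (adjusted p = 0.0115) and with counts scaled from TPM (adjusted p = 0.0109, all from edgeR). The partners of *Dbt* within its complex did not pass, *Bckdha* at −0.19 (adjusted p = 0.399), *Bckdhb* at 0.12 (adjusted p = 0.681) and *Dld* at −0.17 (adjusted p = 0.0802 from edgeR). None of the 6 listed subunits of the related pyruvate and 2-oxoglutarate complexes passed.

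Of the ARMCX and mitochondrial transport genes, 3 of 10 passed. *Armcx1*, which lies next to *Armcx3*, was lower in EPR than in EPRSTOPE cells, the reverse of *Armcx3*. Its levels were 0.988, 0.0914 and 1.37 CPM (mock, EPR, EPRSTOPE), with 3 counts in EPR cells and a ratio of 13.8 (95% counting interval 4.33 to 70.4), and the call was lost when any EPR library was left out. *Trak1*, an adaptor between mitochondria and kinesin, was lower by −0.76 and the kinesin *Kif5c* higher by 2.43. *Angpt1*, a ligand of the receptor on which *Ptprb* acts, had levels of 2.32, 30.7 and 73.1 CPM (mock, EPR, EPRSTOPE; −1.25 between EPR and EPRSTOPE), and the receptor genes *Tek* and *Tie1* were below the filter.

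The RGK relative of *Gem*, *Rem2*, had no count in mock or EPRSTOPE cells and 2.71, 2.65 and 1.96 CPM in the EPR libraries. Its direction between EPR and EPRSTOPE was the reverse of that of *Gem*, but unlike *Gem* it did not differ between mock and EPRSTOPE. *Rem2* entered the test only through the EPR libraries. It was at least 6.24-fold higher in EPR than in EPRSTOPE cells. *Rrad*, another of this group, did not pass (1.61, adjusted p = 0.0113 from edgeR). Among actin-bundling genes *Vil1*, the villin of microvilli, passed with 3.37, 42.3 and 8.32 CPM in mock, EPR and EPRSTOPE cells. In the creatine system only the transporter *Slc6a8* passed (−0.59), and the muscle kinases *Ckm* and *Ckmt2* were below the filter. The tested relatives of *Tpd52l1*, *Tpd52* and *Tpd52l2*, did not pass. *Tpd52* (0.43, adjusted p = 0.000255 from edgeR) missed only the size of 0.5. *Tpd52l2* (−0.06, adjusted p = 0.615 from edgeR) met neither criterion.

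**Figure D4:**
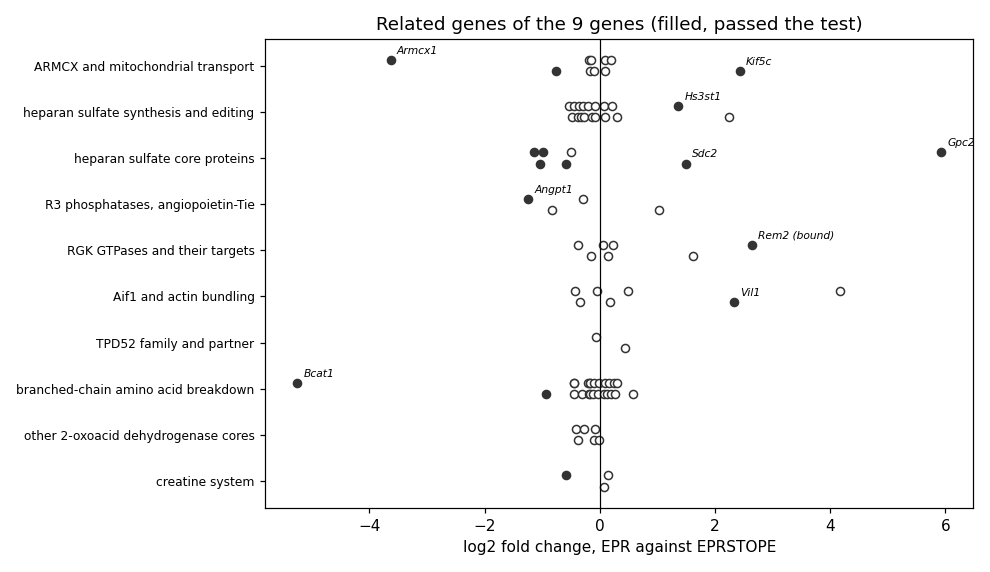
Fitted log2 fold change of EPR against EPRSTOPE cells (horizontal axis) for the 88 tested related genes, 1 row per list; filled points passed the test, and Rem2 is drawn at its lower bound. Filled points are densest among the heparan sulfate core proteins, and none lies in the rows labelled other 2-oxoacid dehydrogenase cores and TPD52 family and partner.

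Genes next to the 9 on their chromosomes were examined to see whether whole regions moved with them. Of the 5 tested genes on either side, 90 in all, 5 passed higher and 7 lower in EPR against EPRSTOPE cells, with a median of −0.08, again beside 13.2% of all tested genes. At most 2 of the 10 neighbours of any gene passed. Neighbours were taken by order, so the 10 spanned from 376 kb around *Ckb* to 4335 kb around *Hs6st2*. *Mbnl3*, a splicing regulator next to *Hs6st2* among tested genes, had the order of *Hs6st2* (1.93, standard error 0.32). Its levels were 18.8, 18.6 and 20.5 CPM in mock, 2.09, 3.66 and 2.15 CPM in EPR and 0.508, 0.747 and 0.690 CPM in EPRSTOPE libraries. The non-coding RNA *Firre*, also among the neighbours of *Hs6st2*, passed with 0.59. *Cdh17*, an intestinal cadherin 53.7 kb from *Gem*, was at 5.86, 104 and 231 CPM in mock, EPR and EPRSTOPE cells, so unlike *Gem* it was above mock cells in both. *Pdp1*, the next gene, was lower in EPR than in EPRSTOPE cells by −0.62, a call that was lost without library 208 (adjusted p = 0.0120) or 209 (adjusted p = 0.0110 from edgeR).

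*Ptprr* (2.21), another receptor phosphatase, and *Tspan8* (0.71) were higher in EPR cells, where *Ptprb* was nearly absent. *Qrfp*, the neuropeptide gene beside *Aif1l* among tested genes, was at 0.299, 0.870 and 9.32 CPM in mock, EPR and EPRSTOPE cells (−3.41). The adhesion molecule *Vcam1*, among the neighbours of *Dbt*, was at 41.9, 49.7 and 276 CPM (−2.47). *Tceal8*, 1412 kb from *Armcx3* (−1.55), and *Trmt61a*, 8.74 kb from *Ckb* (−0.67), were lower in EPR than in EPRSTOPE cells. *Dapp1*, next to *1110002E22Rik* among tested genes (0.75), was higher. The call of *Dapp1* was lost without library 207 (adjusted p = 0.0129), 209 (adjusted p = 0.0100) or 210 (adjusted p = 0.0109 from edgeR). None of the neighbours of *Tpd52l1* passed.

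**Figure D5:**
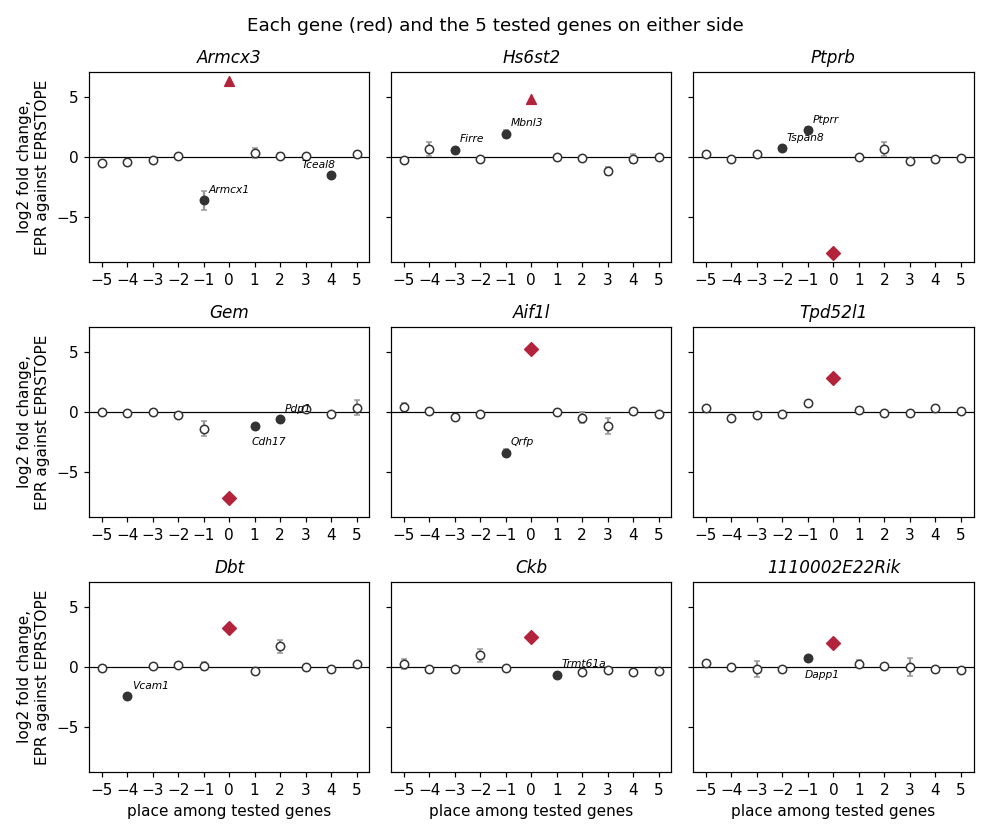
Fitted log2 fold change of EPR against EPRSTOPE cells (vertical axes, whiskers standard errors) of each gene (red, at place 0, a triangle for a lower bound) and of the 5 tested genes on either side in chromosome order; filled black points passed the test. Most neighbours lie near 0, and at most 2 per gene are filled.

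Genes whose pattern over the 9 libraries was most like that of each gene were sought among 9937 genes by the root mean square difference of log2(CPM + 1), centred on each gene's mean. This distance describes likeness and carries no test. The closest pairs were *1110002E22Rik* with *Zbtb4* (0.182) and *Ccnd2* (0.185), *Tpd52l1* with *Fabp5* (0.231) and *Map9* (0.262), *Dbt* with *Raet1e* (0.243) and *Echdc2* (0.260), and *Ckb* with *Adam23* (0.254) and *Inhbb* (0.325). *Hs6st2* was nearest to *Hist1h1a* (0.295) and *Pkhd1* (0.385), *Aif1l* to *Pik3c2g* (0.334) and *Aldh1a1* (0.377), and *Armcx3* to *Pik3ap1* (0.375) and *Abcb1b* (0.421). *Gem*, nearest to *Pcdh19* (0.533) and *Adcy7* (0.559), and *Ptprb*, nearest to *Serpinb11* (0.539) and *Tfpi* (0.731), had the largest distances.

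The nearest genes show that these patterns occur at other levels too. *Ccnd2*, the cyclin D2 of the G1 phase, had levels of 175 ± 8.65, 333 ± 19.2 and 82.3 ± 1.76 CPM (SD, n = 3 each; mock, EPR, EPRSTOPE), the order of *1110002E22Rik*. *Inhbb*, a subunit of activin and inhibin, was at 85.6, 2.39 and 0.501 CPM in mock, EPR and EPRSTOPE cells. *Serpinb11*, like *Ptprb*, was found almost entirely in EPRSTOPE cells, at 24.6 ± 2.81 CPM (SD, n = 3), with 4 counts in mock libraries and none in those of EPR.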

How the data were processed

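RNA-Seq was performed on 9 libraries, 3 per condition, assigned by their genotype labels and titles. Libraries were TruSeq Stranded Total RNA, paired-end. The authors quantified reads with kallisto 0.43.1 (and bcl2fastq 2.0 before it, per the submitters' processing notes) on Gencode vM15 transcripts. They deposited, for each transcript, an estimated count (expected count, not normalised), a TPM value and its length.

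Estimated counts were summed per gene symbol and rounded, and features reaching 1 CPM in at least 3 libraries were tested. Tests used edgeR 4.0.16 (R 4.3.3), quasi-likelihood, with TMM factors, 1 factor of 3 levels over all 9 libraries and Benjamini-Hochberg adjustment over all tested features. Passing required a log2 fold change beyond 0.5 and, after adjustment, p under 0.01. Standard errors came from the quasi-likelihood F statistic. The steps were tested on simulated data. Counting intervals (95%, exact) and the floor of 3 counts cover counting error only, and the floor was 0.244 to 0.508 normalised CPM.

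The 9 genes and all gene lists were chosen with earlier results of these data known. Named beside them are related genes and neighbours that passed in EPR against EPRSTOPE (at most 4 per list or gene, by size of change) and the 2 genes of nearest pattern with at least 10 CPM. *Sdc1*, *Sdc3*, *Hs6st1*, *Rrad*, *Bckdha*, *Bckdhb*, *Dld*, *Tpd52* and *Tpd52l2* are named outside this rule, after their values were seen. Gene positions and 31-base stretches came from Gencode M21 on GRCm38, promoter windows from RefSeq. Alternatives were DESeq2 1.42.0, limma 3.58.1 with voom, upper-quartile factors, no filter, counts scaled from TPM and length, a minimum of 10 counts in every library, fits of the compared conditions only, and leaving out each library. The rest was done in Python 3.11.15 (pandas 2.3.3, scipy 1.17.1, numpy 2.4.6) and drawn with matplotlib 3.10.9. Gene counts by STAR and HTSeq, which the methods also describe, were not used here.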

Additional observations from a re-analysis of the deposited data

Results flagged for a closer look

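A set of 6 of the genes had every EPR library on one side of all mock libraries and every EPRSTOPE library on the other. Their fitted log2 differences between EPR and EPRSTOPE cells were 5.23 for *Aif1l*, 3.21 for *Dbt*, 2.03 for *1110002E22Rik*, −8.06 for *Ptprb* and −7.18 for *Gem*. For *Armcx3* the fitted value was 11.22, which is set against libraries without a count and is no bound. These differences were not tested, because the genes were picked for them. In EPR against mock cells neither *Armcx3* nor *Ptprb* passed the test. The related gene *Sdc2* also rose in EPR and fell in EPRSTOPE against mock cells, and its difference of 1.49 was tested and passed (adjusted p = 7.24e-06 from edgeR).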

How the results depend on the processing

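With at least 10 counts in every library only 3 of the 9 genes were tested (*Dbt*, *Tpd52l1* and *1110002E22Rik*), and 3 passed in EPR against mock, 3 in EPRSTOPE against mock and 1 for the mean of EPR and EPRSTOPE against mock. With limma, 6 transcripts in place of 3 passed in EPR against mock, and the cause was not tested. Of the 99 counts recomputed, the other 95 stayed within 1.5 times. When each library was left out in turn, 6 to 7 of the 9 genes passed in EPR against mock (7 with all libraries), 9 to 9 in EPRSTOPE against mock and 4 to 6 for the mean (5 with all). For related genes the count was 13 to 18 (16 with all), for neighbours 10 to 13 (12 with all), and for transcripts 3 to 4 in EPR (3 with all) and 6 to 9 in EPRSTOPE against mock (9 with all). The mean change of *1110002E22Rik*, −0.06 and not called, turned to 0.125 with counts scaled from TPM, and it ran from −0.1492 to 0.0325 when single libraries were left out, with 0.0097 without library 205 and 0.0325 without library 209. Of 823 recomputed values of single genes with a test, 791 kept direction and call, 20 lost the call and 9 gained it. Fitted differences against EPRSTOPE cells for *Armcx3* and *Hs6st2* moved with limma and DESeq2, and those of *Ptprb* (−9.91) and *Gem* (−10.18) without library 206. No scaling moved the median of all genes by over 0.1. No paired analysis was possible because the library numbers 203 to 211 share no replicate number between conditions. Depth limits what can be said of genes near 0, and 3 libraries per condition limit exact tests to a smallest p of 0.1.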
